A study of Mus musculus with 7 samples.

Results

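Mitophagy, the removal of damaged mitochondria by autophagy, was followed here through 39 genes: mitophagy receptors, the kinase Pink1 with its partners, adaptors and their kinases, ubiquitin enzymes, and proteins of the outer mitochondrial membrane. They were taken by symbol from 1 table of gene counts; all 39 were found among its 55487 genes, and all 39 passed the filter on low counts that left 16203 genes for testing. The study counted RNA in 7 libraries of isolated mouse pancreatic islets, 4 labelled control and 3 labelled Traf6 KO, the latter from mice in which Traf6, an E3 ubiquitin ligase of innate immune signalling, was deleted in beta cells. Both groups received a high-fat diet (60%) for 15 weeks, and their islets recovered in culture medium for 24 hours before RNA was taken. The driver of the deletion, the strain and the age of the mice are not given, and the other islet cells keep Traf6 by the stated design.

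As background, damaged mitochondria are marked for removal along 2 routes. In the first, the kinase PINK1 builds up on the outer membrane, phosphorylates ubiquitin, and ubiquitin chains on outer-membrane proteins are bound by adaptors such as OPTN and SQSTM1, which also bind the LC3 proteins of the autophagosome; deubiquitinases such as USP30 oppose it. In the second, receptors that sit in the mitochondrial membrane, such as BNIP3, BNIP3L and FUNDC1, bind LC3 directly. In beta cells mitophagy is known for keeping up the respiration that insulin secretion depends on, and much of its control acts on the proteins, which RNA counts do not measure.

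Traf6 itself was at 17.9, 25.5, 22.1 and 12.7 CPM in libraries 1 to 4 of the control label, against 14.8, 15.4 and 14.5 CPM in libraries 1 to 3 of Traf6 KO. CPM stands for counts scaled to a common library size, here by TMM, which matches libraries on the bulk of their genes. The library labelled control 4 held the least Traf6 of all 7, below every Traf6 KO library. Whether its label is right cannot be told from these values, as the other islet cells keep Traf6. Every direction below counts it under the control label. Traf6 did not pass the test (log2 fold change -0.40 ± 0.22, SE; adjusted p = 0.416). The estimate was -0.55 without control 4 (unadjusted p = 0.00877, adjusted p = 0.339) and -0.24 without control 2. The libraries held 22104256 to 29917292 counts, and genes of acinar cells, the enzyme-secreting cells around the islets, took 0.457% to 19.9% of them under the control label and 55.3%, 42.4% and 1.6% in Traf6 KO 1, 2 and 3. Over the 28 acinar markers fixed, none of them at 0 in all libraries, the summed level ran from 3640 to 209000 CPM under the control label and from 11800 to 1110000 CPM in Traf6 KO; because the TMM factor of Traf6 KO 1 is low, its CPM values sum to more than the nominal total. The 10 beta-cell markers were present in every library. They summed to 156000 to 190000 CPM under the control label and 89700 to 116000 CPM in Traf6 KO. Ins2 and Ins1 made up most of these sums, averaging 117000 and 35800 CPM under the control label. All Traf6 KO libraries were lower for Ins1, Ins2, Iapp, Ucn3 and Nkx6-1, while Mafa, Pdx1, Slc2a2, Slc30a8 and G6pc2 overlapped between the groups. In whole islets fewer cells of a type and less RNA per cell cannot be told apart. Xist was counted 12998 times in Traf6 KO 3 and at most 11 times in any other library, so that library stands apart from the other 6 on Xist. Control 1 and Traf6 KO 1 and 2, the libraries with the highest acinar shares, are called acinar-rich below. Lymphocyte markers (8 genes) summed to 11.9 to 66.3 CPM under the control label and to 31.8 to 442 CPM in Traf6 KO. The highest sum was in Traf6 KO 3, where Ighm alone made up most of it, at 401 CPM. Endothelial markers (8 genes) summed to 386 to 466 CPM under the control label and 350 to 381 CPM in Traf6 KO.

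No mitophagy gene passed the test between genotypes. At an adjusted p under 0.05 edgeR's quasi-likelihood test called 0 of the 39 genes and 0 of all 16203 (0%), with a smallest adjusted p of 0.235 over the 39 and 0.176 over all genes. At an unadjusted p under 0.05, 5 of the 39 (12.8%) stood out, against 2589 of all tested genes (16%), so the share was near the background. The count was 3 without control 2 (10.9% of all genes there), 2 without control 3 (10.3%), 9 without Traf6 KO 1 (17.5%), 0 without Traf6 KO 2 (9.89%) and 10 without Traf6 KO 3 (23.5%). Of these 5, Ulk1, Tbc1d15 and Usp8 were higher in Traf6 KO and Nipsnap1 and Tbc1d17 lower. DESeq2's Wald test also called 0 of the 39, against 744 of 14251 genes (5.22%), and 7 of the 39 had an unadjusted p under 0.05 there, against 17.5% of all genes. Leaving out Traf6 KO 3 gave 701 calls of 16540 genes (4.24%) and again 0 of the 39.

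The differences were small as well as uncalled. Log2 fold changes of Traf6 KO over control ran from -0.31 to 0.34, with a median of 0.04 over the 39 genes and 0.01 over all genes; 22 lay above 0 and 17 below. The median size without regard to sign was 0.12, against 0.23 over all tested genes. Their median standard error was also smaller, 0.12 against 0.21 over all tested genes, so sizes and intervals are not on an equal footing. The 95% intervals of all 39 lay within a 2-fold change in either direction, and those of 33 within 1.5-fold; over all genes 10358 and 5760 of 16203 did so. The 6 with wider intervals were Nlrx1, Pink1, Nbr1, Tbc1d15, Huwe1 and Vdac2. The groups did not overlap, with Traf6 KO higher, for Ulk1, Tbc1d15 and Usp8 (3 of 39, 7.69%, against 5.58% of all genes), and with Traf6 KO lower for Nipsnap1 alone (1 of 39, 2.56%, against 8.68%). With fewer libraries more genes do not overlap, so each count has its own background. The first count was 5 without control 2 (12.8%, against 6.95% of all genes there), 5 without Traf6 KO 1 (12.8%, against 12.8%) and 14 without Traf6 KO 3 (35.9%, against 16.5%). The second was 2 without control 3, Traf6 KO 2 or Traf6 KO 3 (5.13%, against 10.1%, 10.6% and 17.7%), 3 without control 4 (7.69%, against 11.7%) and 4 without Traf6 KO 1 (10.3%, against 14.5%). Scaling by plain library totals shifted the median of all genes to -0.46, and the estimates of Ulk1, Tbc1d15 and Usp8 then lay below 0.

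**Figure D1:**
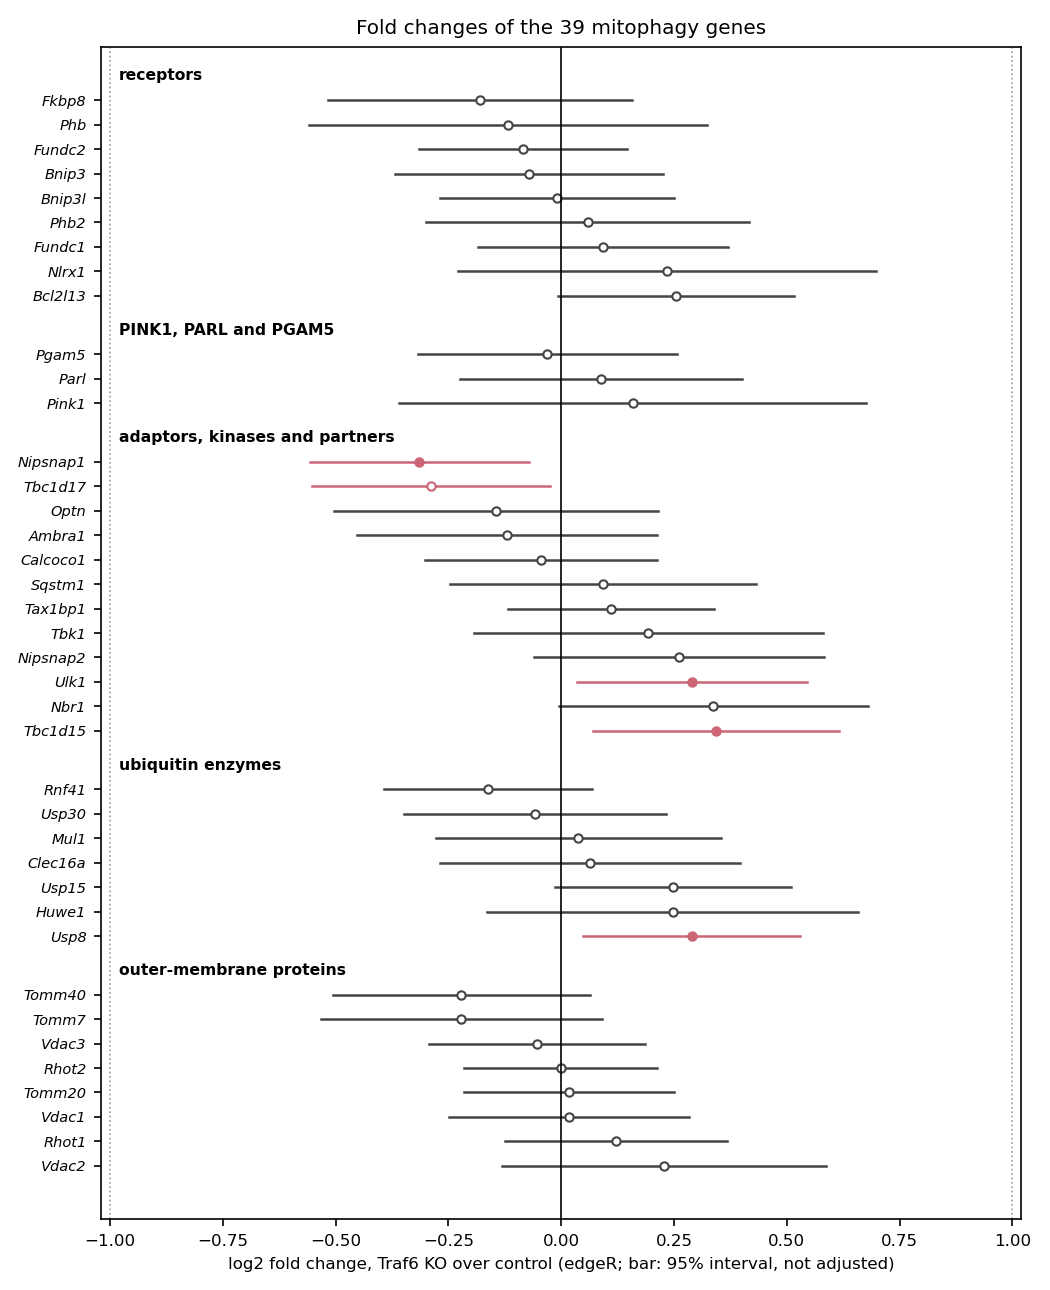
Log2 fold change of Traf6 KO over control for each of the 39 genes, by subgroup; points are edgeR estimates and bars their unadjusted 95% intervals, with dotted lines at a 2-fold change. Filled points mark the 4 genes whose groups do not overlap and red marks the 5 with an unadjusted p under 0.05; every estimate lies between -0.31 and 0.34.

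The promoters of the 4 genes whose groups did not overlap are shown, with that of Bnip3 for contrast, since it holds the E-box CACGTG bound by the autophagy regulators TFEB and TFE3. Each line gives the 250 bases before the RefSeq start, 5′ to 3′ on the gene's strand, on GRCm38.p6; capitals mark the E-box, 108 bases before the start of Bnip3. The GENCODE starts of Ulk1 and Bnip3 lie a few bases inside their windows.
Ulk1, chr5:110810082-110810331, minus strand: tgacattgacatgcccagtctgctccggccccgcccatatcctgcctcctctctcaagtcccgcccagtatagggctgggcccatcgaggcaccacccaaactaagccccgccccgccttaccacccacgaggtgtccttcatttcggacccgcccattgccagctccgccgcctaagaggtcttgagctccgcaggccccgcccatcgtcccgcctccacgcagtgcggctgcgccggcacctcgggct
Tbc1d15, chr10:115251494-115251743, minus strand: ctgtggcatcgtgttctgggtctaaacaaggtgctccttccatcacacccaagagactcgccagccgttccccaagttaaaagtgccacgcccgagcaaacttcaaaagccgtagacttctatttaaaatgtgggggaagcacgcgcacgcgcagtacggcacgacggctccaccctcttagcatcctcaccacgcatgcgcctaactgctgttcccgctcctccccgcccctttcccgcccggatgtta
Usp8, chr2:126707078-126707327, plus strand: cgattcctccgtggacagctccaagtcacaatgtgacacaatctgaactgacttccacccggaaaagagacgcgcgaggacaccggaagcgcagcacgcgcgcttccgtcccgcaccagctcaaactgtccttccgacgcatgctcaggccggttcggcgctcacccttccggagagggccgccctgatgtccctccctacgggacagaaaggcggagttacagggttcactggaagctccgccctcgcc
Nipsnap1, chr11:4873701-4873950, plus strand: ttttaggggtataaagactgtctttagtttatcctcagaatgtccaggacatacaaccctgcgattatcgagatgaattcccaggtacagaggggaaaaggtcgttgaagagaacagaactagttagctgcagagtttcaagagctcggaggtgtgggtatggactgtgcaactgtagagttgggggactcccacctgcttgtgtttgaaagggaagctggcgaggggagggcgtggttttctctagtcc
Bnip3, chr7:138909507-138909756, minus strand: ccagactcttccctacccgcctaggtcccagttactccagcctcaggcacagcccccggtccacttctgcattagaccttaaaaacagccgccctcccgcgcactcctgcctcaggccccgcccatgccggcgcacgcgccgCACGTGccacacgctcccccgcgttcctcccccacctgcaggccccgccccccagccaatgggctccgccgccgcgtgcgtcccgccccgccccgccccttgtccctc

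Matches on either strand were counted in these 250-base windows for the 33 of 39 genes in the RefSeq table (37 windows). CACGTG was found in 4 genes, Bnip3, Mul1, Phb and Tomm20, or 10.8% of their windows against 6.02% of 32851 windows of all genes. ACGTG, the core of the hypoxia response element, which also matches inside CACGTG, was found in 10 genes (27% of windows, against 16.6%). TGACNNNGC, the antioxidant response core, was found in 6 genes (16.2%, against 10.2%). The windows of Ulk1, Tbc1d15, Usp8 and Nipsnap1 held no match to these motifs. Bnip3, whose window held both CACGTG and ACGTG, had a log2 fold change of -0.07.

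Receptors were close to level between the genotypes. Of 9 genes, 4 had estimates above 0 and 5 below, with a median of -0.01, and none had an unadjusted p under 0.05. Bnip3, an outer-membrane receptor induced by low oxygen, stood at 59.2, 54.3, 46.6 and 44.4 CPM under the control label (1 to 4) against 48.5, 53.3 and 44.1 CPM in Traf6 KO (1 to 3). The groups overlapped, with the highest level in control 1 and the lowest in Traf6 KO 3, next to control 4. Its log2 fold change was -0.07 ± 0.13 (SE; adjusted p = 0.82).

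Bnip3l, also called NIX, is the receptor that clears mitochondria from maturing red blood cells. It was at 48.6, 41.2, 47.5 and 43.1 CPM under the control label (1 to 4) against 48.7, 46.7 and 39.1 CPM in Traf6 KO (1 to 3). The highest level, in Traf6 KO 1, was nearly that of control 1, and only Traf6 KO 3 lay below every control. The means were 45.1 ± 3.48 CPM (SD, n = 4) under the control label and 44.8 ± 5.1 CPM (SD, n = 3) in Traf6 KO, and the log2 fold change was -0.01, with an interval of -0.27 to 0.25. Fundc1, an outer-membrane receptor whose binding to LC3 is set by its phosphorylation, was at 29.4, 27.6, 27.4 and 26.5 CPM under the control label (1 to 4) against 33.4, 30.7 and 24.7 CPM in Traf6 KO (1 to 3). Here Traf6 KO 1 and 2 lay above all controls and Traf6 KO 3 below all of them. Its log2 fold change was 0.09 ± 0.12 (SE; adjusted p = 0.736), and 0.21 without Traf6 KO 3.

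The other 6 receptors had log2 fold changes from -0.18 to 0.25. Bcl2l13, a relative of the BCL2 proteins in the outer membrane, was the highest of them (log2 fold change 0.25 ± 0.11, SE; unadjusted p = 0.055), at 30.5, 28.2, 24.6 and 25 CPM under the control label (1 to 4) against 29.3, 34 and 33.5 CPM in Traf6 KO (1 to 3). Control 1 overlapped the Traf6 KO range. Nlrx1, a mitochondrial protein of the NOD-like receptor family, was the least abundant per length of the 39, at 5.29 CPM under the control label and 6.23 CPM in Traf6 KO on average, with a log2 fold change of 0.23 ± 0.20 (SE), or 0.12 without control 2. Fkbp8, an outer-membrane immunophilin that binds LC3, averaged 170 CPM under the control label and 150 CPM in Traf6 KO (log2 fold change -0.18 ± 0.15, SE; -0.35 without Traf6 KO 1 and -0.07 without Traf6 KO 3); Traf6 KO 1 was its highest library and Traf6 KO 3 its lowest. Fundc2, the paralogue of Fundc1, had a log2 fold change of -0.08. Phb and Phb2 encode the prohibitins, of which PHB2 is an inner-membrane receptor exposed once the outer membrane ruptures; their log2 fold changes were -0.12 and 0.06. Phb2 was at 59.4, 55.3, 54.7 and 58.2 CPM under the control label (1 to 4) against 70.6, 63.1 and 44.2 CPM in Traf6 KO (1 to 3). Its 2 acinar-rich Traf6 KO libraries lay above every control and Traf6 KO 3 below every one. With an acinar covariate, the mean log2 CPM of the 28 acinar markers in each library, the estimate was -0.19. What part the acinar cells had in the Phb2 levels was not tested.

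Pink1 (ENSMUSG00000028756, chr4:138313409-138326307 on the minus strand of GRCm38) was the most variable of its subgroup. It stood at 157, 116, 133 and 107 CPM under the control label (1 to 4) against 172, 162 and 95.7 CPM in Traf6 KO (1 to 3). Traf6 KO 1 and 2 were the highest of the 7 libraries and Traf6 KO 3 the lowest, so the Traf6 KO group spanned the whole control range. The means were 128 ± 22.1 CPM (SD, n = 4) under the control label and 143 ± 41.4 CPM (SD, n = 3) in Traf6 KO, and the log2 fold change was 0.16 ± 0.22 (SE; adjusted p = 0.762), with an interval of -0.36 to 0.68. The 3 libraries with the highest levels were also the 3 richest in acinar counts. The estimate was -0.21 with the acinar covariate, 0.38 without Traf6 KO 3 and 0.02 without Traf6 KO 1. It was 0.08 without Traf6 KO 2 or control 4, and 0.30 without control 1. Parl, the inner-membrane protease that cleaves PINK1 in healthy mitochondria, followed the same order of Traf6 KO libraries, at 22.5, 20.5, 23.5 and 21.8 CPM under the control label (1 to 4) against 26, 25.8 and 18.7 CPM in Traf6 KO (1 to 3). Pgam5, a mitochondrial phosphatase that acts on FUNDC1 and is cut by PARL, had a log2 fold change of -0.03. None of these 3 genes had an unadjusted p under 0.05, and 2 lay above 0 and 1 below.

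**Figure D2:**
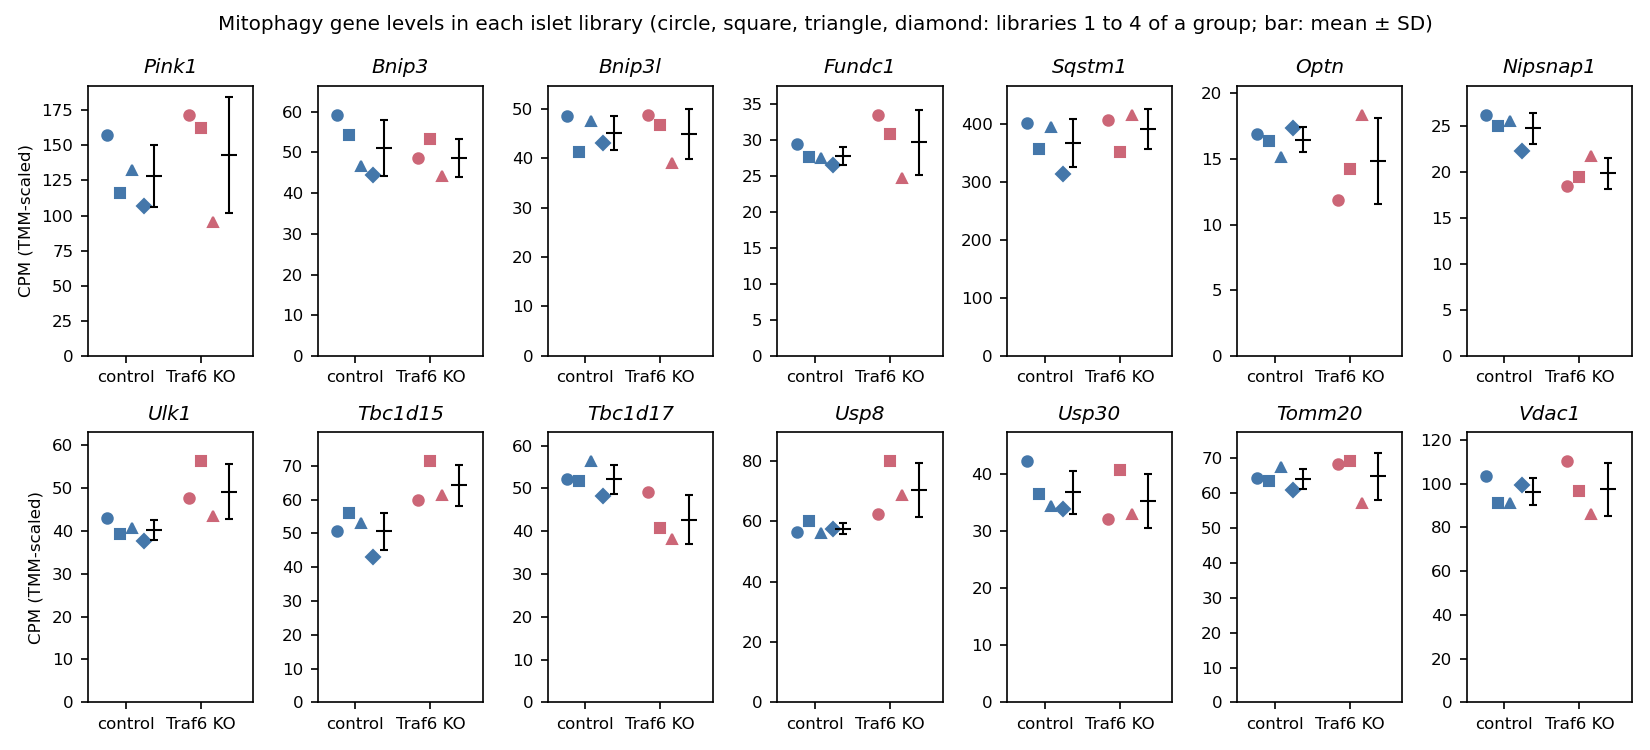
TMM-scaled CPM of 14 genes in each library, blue for the control label and red for Traf6 KO, with black bars for mean ± SD; each vertical axis starts at 0. The groups stand apart for Nipsnap1, Ulk1, Tbc1d15 and Usp8 and overlap for the other 10, and Pink1 shows the widest Traf6 KO spread, from 95.7 to 172 CPM.

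The adaptors, their kinases and partners had estimates in both directions, none past the test. Of the 12, 4 (33.3%, against 16% of all genes) had an unadjusted p under 0.05, 2 higher and 2 lower, and none did without Traf6 KO 2; 7 had estimates above 0 and 5 below, with a median of 0.10. Sqstm1 encodes p62, which links ubiquitin chains to LC3, and was the most abundant of the 39 per length. Its level was 401, 357, 395 and 313 CPM under the control label (1 to 4) against 406, 351 and 415 CPM in Traf6 KO (1 to 3). The groups overlapped over most of their range, and the log2 fold change was 0.09 ± 0.15 (SE; adjusted p = 0.793). Optn encodes optineurin, the adaptor activated by TBK1. It was at 16.9, 16.3, 15.2 and 17.4 CPM under the control label (1 to 4) against 11.9, 14.2 and 18.4 CPM in Traf6 KO (1 to 3). Traf6 KO 1 and 2 lay below all controls and Traf6 KO 3 above all of them; the log2 fold change was -0.14 ± 0.16 (SE; adjusted p = 0.676) and -0.33 without Traf6 KO 3.

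Nbr1, a ubiquitin-binding adaptor related to p62, had one of the largest log2 fold changes, 0.34 ± 0.15 (SE; unadjusted p = 0.0531, adjusted p = 0.319), from 167, 156, 169 and 144 CPM under the control label (1 to 4) against 234, 209 and 160 CPM in Traf6 KO (1 to 3). The acinar-rich Traf6 KO 1 and 2 lay above every control and Traf6 KO 3 within them; the estimate was 0.17 with the acinar covariate. Tax1bp1, another ubiquitin-binding adaptor, and Calcoco1, its relative that serves turnover of the endoplasmic reticulum, had log2 fold changes of 0.11 and -0.04. Tbk1, the kinase that phosphorylates OPTN and p62, averaged 23.7 CPM under the control label and 27.1 CPM in Traf6 KO (log2 fold change 0.19 ± 0.17, SE); it was 0.02 without Traf6 KO 2, 0.30 without control 4 and 0.29 without Traf6 KO 3. Ambra1, which binds LC3 and promotes autophagy, had a log2 fold change of -0.12.

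Nipsnap1 and Nipsnap2 encode matrix proteins that gather on the surface of damaged mitochondria and recruit adaptors there. Nipsnap1 (ENSMUSG00000034285, chr11:4873951-4894200 on the plus strand of GRCm38) was at 26.3, 25, 25.5 and 22.4 CPM under the control label (1 to 4) against 18.5, 19.5 and 21.8 CPM in Traf6 KO (1 to 3). All 3 Traf6 KO libraries lay below all 4 controls, the nearest pair being Traf6 KO 3 and control 4. The means were 24.8 ± 1.7 CPM (SD, n = 4) under the control label and 19.9 ± 1.68 CPM (SD, n = 3) in Traf6 KO, the log2 fold change -0.31 ± 0.11 (SE), its interval -0.56 to -0.07 and the unadjusted p 0.0176 (adjusted p = 0.235). With the acinar covariate the estimate was -0.27 (edgeR unadjusted p = 0.0678), against -0.26 without Traf6 KO 1 and -0.38 without Traf6 KO 3. Without the acinar-rich libraries, which left Traf6 KO 3 alone in its group, the estimate was -0.17. Nipsnap2 went the other way in Traf6 KO 1 and 2, at 64.5, 63.1, 61.9 and 56.6 CPM under the control label (1 to 4) against 86.5, 76.5 and 58.4 CPM in Traf6 KO (1 to 3). Traf6 KO 3 lay within its controls, and the log2 fold change was 0.26 ± 0.14 (SE; adjusted p = 0.39). It was 0.08 with the acinar covariate, 0.14 without Traf6 KO 1 and 0.40 without Traf6 KO 3.

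Ulk1 (ENSMUSG00000029512, chr5:110784488-110810097 on the minus strand of GRCm38), the kinase that starts autophagosome formation, stood at 42.9, 39.2, 40.7 and 37.7 CPM under the control label (1 to 4) against 47.6, 56.1 and 43.5 CPM in Traf6 KO (1 to 3). The Traf6 KO libraries all exceeded the controls, with Traf6 KO 3 just above control 1. The log2 fold change was 0.29 ± 0.11 (SE), with an interval of 0.04 to 0.55 and an unadjusted p of 0.0302 (adjusted p = 0.271). It was 0.19 with the acinar covariate, 0.19 without Traf6 KO 2 and 0.37 without Traf6 KO 3.

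Tbc1d15 and Tbc1d17 encode GTPase-activating proteins for RAB7 that bind FIS1 on mitochondria and shape the growing autophagosome. Tbc1d15 (ENSMUSG00000020130, chr10:115197872-115251467 on the minus strand of GRCm38) was at 50.6, 55.9, 52.9 and 43.1 CPM under the control label (1 to 4) against 60, 71.3 and 61.3 CPM in Traf6 KO (1 to 3). Its groups did not overlap, and its estimate was the largest of the 39 together with that of Nbr1: 0.34 ± 0.12 (SE), interval 0.07 to 0.62, unadjusted p = 0.0201 (adjusted p = 0.246). Leaving out Traf6 KO 2 gave 0.27 and leaving out Traf6 KO 1 gave 0.40, against 0.36 with the acinar covariate. Tbc1d17 (ENSMUSG00000038520, chr7:44834623-44849079 on the minus strand of GRCm38) was at 52.2, 51.7, 56.3 and 48.2 CPM under the control label (1 to 4) against 49.3, 40.7 and 38.3 CPM in Traf6 KO (1 to 3). Traf6 KO 1 lay above control 4, so the groups overlapped; the log2 fold change was -0.29 ± 0.11 (SE; unadjusted p = 0.0355, adjusted p = 0.283). Of the 75-base stretches in its longest transcript, 35.4% also occur on either strand in transcripts of other genes, mostly Il4i1. The counts of Tbc1d17 are therefore less certain. Il4i1 held at most 120 counts in any library, against at least 544 for Tbc1d17.

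Ubiquitin enzymes had a median log2 fold change of 0.06, with 5 of 7 above 0. An unadjusted p under 0.05 was found for 1 of them (14.3%, against 16% of all genes). That gene was Usp8 (ENSMUSG00000027363, chr2:126707328-126759297 on the plus strand of GRCm38), a deubiquitinase of endosomes that also acts in mitophagy, at 56.6, 60.1, 56.2 and 57.5 CPM under the control label (1 to 4) against 62.5, 79.8 and 68.8 CPM in Traf6 KO (1 to 3). All 3 Traf6 KO libraries lay above the controls, which were close together. The means were 57.6 ± 1.78 CPM (SD, n = 4) under the control label and 70.4 ± 8.79 CPM (SD, n = 3) in Traf6 KO. The log2 fold change was 0.29 ± 0.10 (SE), with an interval of 0.05 to 0.53 and an unadjusted p of 0.0243 (adjusted p = 0.259). With the acinar covariate the Usp8 estimate was 0.30, against 0.20 without Traf6 KO 2 and 0.38 without Traf6 KO 1. Clec16a and Rnf41 encode the partners of USP8 in a complex known to control mitophagy in beta cells, an adaptor with ubiquitin ligase activity and the E3 ligase NRDP1. Their log2 fold changes were 0.06 ± 0.14 and -0.16 ± 0.10 (SE), the latter -0.09 without control 1. Clec16a averaged 16.8 CPM under the control label and 17.5 CPM in Traf6 KO and Rnf41 38.7 CPM under the control label and 34.5 CPM in Traf6 KO.

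Usp30, the deubiquitinase anchored in the outer membrane, was at 42.2, 36.4, 34.4 and 33.9 CPM under the control label (1 to 4) against 32.1, 40.7 and 33 CPM in Traf6 KO (1 to 3). Traf6 KO 1 and 3 lay below every control and Traf6 KO 2 within them, and the log2 fold change was -0.06 ± 0.13 (SE; adjusted p = 0.855), with an interval of -0.35 to 0.23. Usp15, another deubiquitinase that opposes mitophagy, had a log2 fold change of 0.25 ± 0.11 (SE; unadjusted p = 0.0612). Mul1, an E3 ligase of the outer membrane, had a log2 fold change of 0.04. Huwe1, a large E3 ligase that works with AMBRA1, was at 118, 142, 134 and 122 CPM under the control label (1 to 4) against 111, 161 and 187 CPM in Traf6 KO (1 to 3). Traf6 KO 1 was the lowest of all libraries and Traf6 KO 3 the highest; the log2 fold change was 0.25, 0.08 once Traf6 KO 3 was left out, 0.44 without Traf6 KO 1, and 0.46 with acinar share as a covariate. Huwe1, Fundc1 and Fundc2 are the X-linked genes among the 39; in Traf6 KO 3, the Xist-rich library, Huwe1 was the highest of the 7 libraries and Fundc1 and Fundc2 the lowest.

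Outer-membrane proteins were balanced, with 4 of 8 above 0, 4 below by the unrounded estimates and a median of 0.01; none had an unadjusted p under 0.05. Tomm20, a receptor of the protein import channel, was at 64.3, 63.4, 67.6 and 60.8 CPM under the control label (1 to 4) against 68.2, 69.1 and 57.1 CPM in Traf6 KO (1 to 3). Traf6 KO 1 and 2 lay just above all controls and Traf6 KO 3 below them; the log2 fold change was 0.02 ± 0.10 (SE), with an interval of -0.22 to 0.25. Tomm40, the import pore, averaged 32.5 CPM under the control label and 27.9 CPM in Traf6 KO (log2 fold change -0.22 ± 0.12, SE), and Tomm7, which helps hold PINK1 at that channel, 25.2 CPM under the control label and 21.7 CPM in Traf6 KO (log2 fold change -0.22 ± 0.14, SE). Without Traf6 KO 3 these were -0.12 and -0.14, and Tomm7 was also at -0.14 without control 1.

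Vdac1, the main porin of the outer membrane and a target of ubiquitin ligases, was at 104, 91.3, 91.1 and 99.2 CPM under the control label (1 to 4) against 110, 96.4 and 86 CPM in Traf6 KO (1 to 3). The groups overlapped, and the log2 fold change was 0.02 ± 0.12 (SE; adjusted p = 0.957). Vdac2 and Vdac3, its paralogues, had log2 fold changes of 0.23 ± 0.16 and -0.05 ± 0.10 (SE). Vdac2 was at 85, 76.5, 76.6 and 77.4 CPM under the control label (1 to 4) against 112, 95.9 and 70.1 CPM in Traf6 KO (1 to 3). The acinar-rich Traf6 KO 1 and 2 lay above every control and Traf6 KO 3 below. The acinar covariate gave Vdac2 an estimate of -0.02, against 0.08 without Traf6 KO 1 and 0.39 without Traf6 KO 3. Rhot1 and Rhot2 encode the Miro GTPases, which couple mitochondria to motor proteins and are removed early in mitophagy; their log2 fold changes were 0.12 and 0.00.

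Traf6 KO 1 and 2 often sat together and apart from Traf6 KO 3. For 11 of the 39 genes (28.2%) both of these libraries lay above every control and Traf6 KO 3 did not, against 11% of all tested genes. The 11 were Pink1, Parl, Fundc1, Nlrx1, Phb2, Tax1bp1, Nbr1, Nipsnap2, Usp15, Tomm20 and Vdac2, so each of the 5 subgroups held at least 1. The opposite pattern held for 1 gene, Optn (2.56%, against 9.06% of all genes). This count was made after the values were seen. The acinar share of counts was 55.3% and 42.4% in Traf6 KO 1 and 2 and 1.6% in Traf6 KO 3, and their TMM factors of 0.5 and 0.74 raised their CPM against that on plain totals, under which all 39 estimates lay below 0. Traf6 KO 3 also held 12998 Xist counts, against 0 in each of Traf6 KO 1 and 2. Its animal tag is of the S series, theirs of the Q series. These differences fall on the same libraries and cannot be told apart here. The part of the acinar cells or of the other differences in the pattern was not tested.

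**Figure D3:**
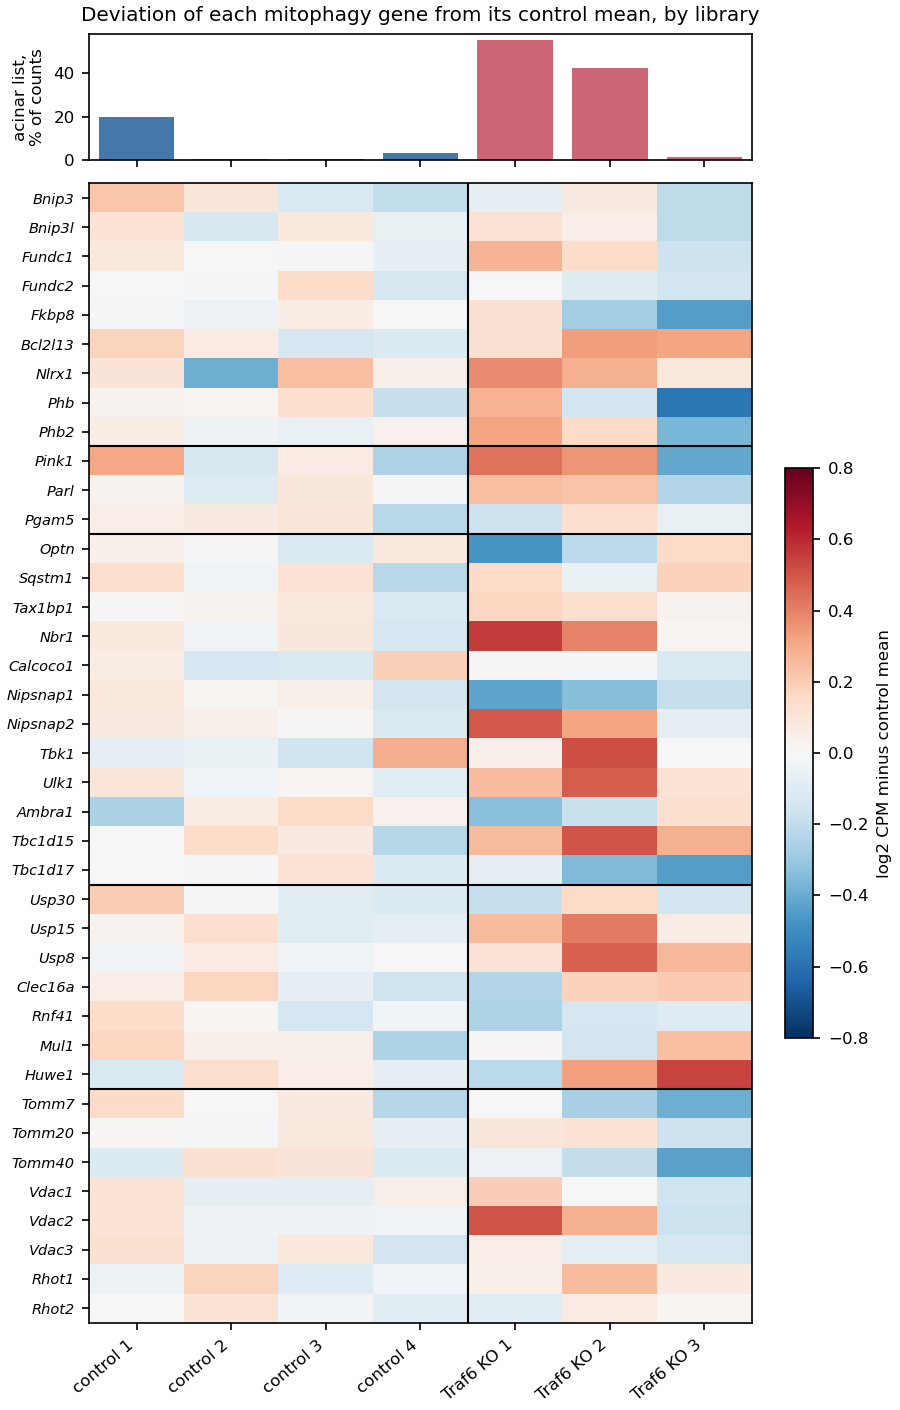
Each gene's level in each library as a log2 difference from the mean of the control libraries (red higher, blue lower), genes grouped by role, under a bar chart of the acinar share of counts in percent. Traf6 KO 3 departs in the other direction from Traf6 KO 1 and 2 for several genes, among them Pink1, Phb2 and Vdac2.

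Related genes were also set against each other within a library, which cancels the library's scaling. In 8 paralogous pairs the log2 ratio was compared by an exact two-sided permutation test over 35 splits, in which 4 against 3 cannot go below p = 0.0571. The Nipsnap1 to Nipsnap2 ratio of CPM was 0.407, 0.397, 0.413 and 0.395 under the control label (1 to 4) against 0.214, 0.255 and 0.373 in Traf6 KO (1 to 3). All Traf6 KO ratios were lower, with a log2 difference of -0.56 (exact permutation p = 0.0571, 0.228 adjusted over the 8 pairs). The 2 acinar-rich Traf6 KO libraries held the lowest ratios, and control 1, with 19.9% acinar counts, lay among the other controls. Once the 3 libraries richest in acinar counts were left out, the difference was -0.11. That value rests on Traf6 KO 3 alone in its group. What part the acinar cells had in this ratio was not tested. The Tbc1d15 to Tbc1d17 ratio was 0.968, 1.08, 0.94 and 0.894 under the control label and 1.22, 1.75 and 1.6 in Traf6 KO. All Traf6 KO ratios were higher, with a log2 difference of 0.64 (exact permutation p = 0.0571, 0.228 adjusted). Without the acinar-rich libraries it was 0.73, again with Traf6 KO 3 as the only Traf6 KO library. The groups of the other 6 ratios overlapped, with log2 differences from -0.26 for Vdac3 to Vdac2 up to 0.17 for Fundc1 to Fundc2. Neither pair was called.

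**Figure D4:**
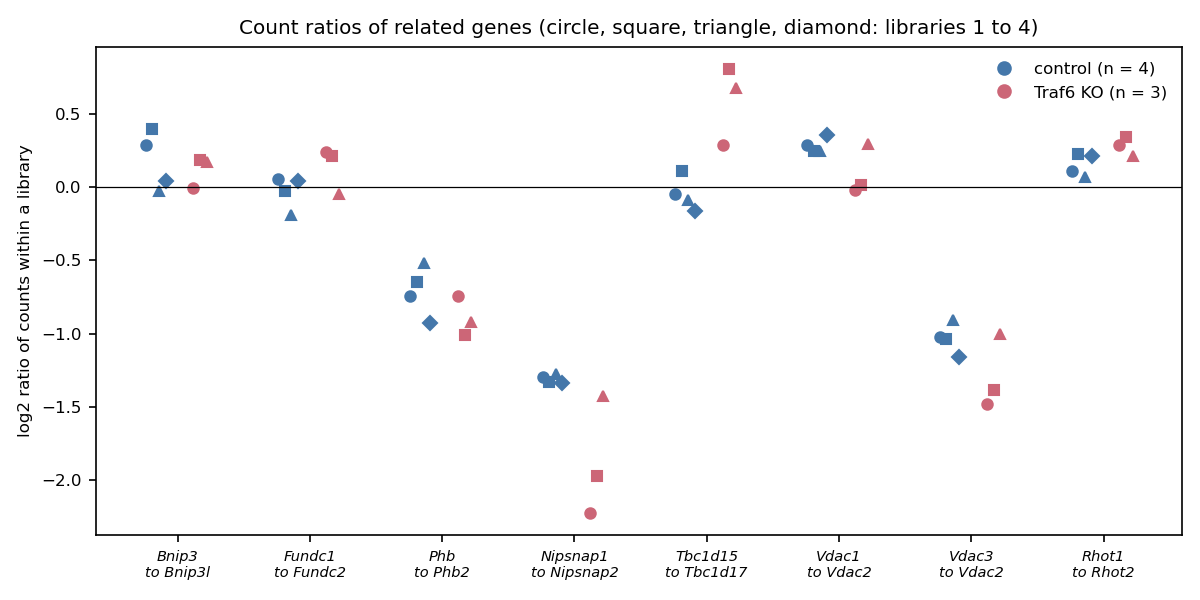
Log2 ratio of the counts of the 2 genes of each of 8 paralogous pairs in every library, blue for the control label and red for Traf6 KO. The Nipsnap1 to Nipsnap2 ratios of Traf6 KO lie below all control ratios and the Tbc1d15 to Tbc1d17 ratios above them; the other 6 pairs overlap.

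The genes differed far more from each other than between genotypes. As CPM per kilobase of exon, mean levels under the control label ran from 109 ± 12.1 for Sqstm1 to 0.92 for Nlrx1, a ratio of 118. After Sqstm1 came Pink1 (48 ± 8.23), Fkbp8 (37.6), Vdac1 (36.8), Nbr1 (23.1) and Bnip3 (22.6), and the lowest above Nlrx1 were Clec16a (2.01), Usp15 (2.25) and Bcl2l13 (2.98). Of the 38 pairs of neighbours in this order, 7 had control ranges that did not overlap, so most neighbours did not differ beyond their spread. Receptors were found near both ends, from Fkbp8 to Nlrx1. Shared sequence makes some levels uncertain. In the longest transcript, 61.4% of 75-base stretches in Pgam5, 46.3% in Bnip3, 45.1% in Phb and 39.8% in Rhot2 recur in other genes' transcripts. The genes sharing most with Phb and Rhot2 held at most 9 and 1 counts in any library. Those sharing most with Pgam5 and Bnip3 were not found by symbol among the counted genes. Of the 39 genes, 21 share no such stretch.

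The other genes of the pathway gave a similar picture. Of 48 mitophagy, fission, fusion and autophagosome genes listed beside the 39, 47 were tested and 0 passed edgeR's test; 25 lay above 0 and 22 below, with a median of 0.01. At an unadjusted p under 0.05 there were 4 higher and 2 lower (12.8%, against 16% of all genes). Fis1, the outer-membrane protein that TBC1D15 and TBC1D17 bind, was at 66.3, 58.8, 65.9 and 67.1 CPM under the control label (1 to 4) against 53.4, 41.6 and 47.6 CPM in Traf6 KO (1 to 3). All Traf6 KO libraries were lower (log2 fold change -0.44 ± 0.11, SE; adjusted p = 0.201). Atg9a, the membrane-carrying scramblase of the early autophagosome, averaged 13.4 CPM under the control label and 18 CPM in Traf6 KO (log2 fold change 0.43 ± 0.10, SE; adjusted p = 0.189), and did not overlap either. These 2 were the genes DESeq2's Wald test called in this list, with adjusted p of 0.0273 for Fis1 and 0.0118 for Atg9a. The other 4 were Mief2, a receptor for the fission GTPase (log2 fold change -0.48), Ulk2, the paralogue of Ulk1 (0.36), Rb1cc1, which encodes the ULK1 partner FIP200 (0.25), and Atg4c, a protease of the LC3 family (0.34), with adjusted p from 0.205 to 0.287.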

How the data were processed

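RNA was measured by paired-end sequencing (151 bp) of isolated islets, per the labels' protocols, in 4 libraries labelled control and 3 labelled Traf6 KO; nothing says whether each library is a separate mouse beyond its own animal tag, so p-values measure the spread between libraries, which may be technical. The authors deposited unnormalized counts per gene, with 1 column per library, all of them whole. STAR 2.6.1b, RSEM 1.3.1, FastQC and GRCm38 are named by the submitters' processing notes without a stated role; rounded RSEM estimates are therefore possible. Neither annotation nor strand setting is given in the sources used here.

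The genotype test was edgeR 4.0.16 under R 4.3.3 (F test on a quasi-likelihood fit, TMM, genotype as the only term; filterByExpr, minimum count 10 and minimum total 15), fitted over all 16203 genes that passed, with Benjamini-Hochberg adjustment and a threshold of 0.05. Intervals are 95% and unadjusted. TMM factors ran from 0.5 to 1.353. Scripts were tested on simulated data. No 2 libraries agreed within sampling noise (lowest chi-square per gene 21.82).

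Gene positions and exon lengths came from GENCODE M21 on GRCm38, which held 55227 of the 55487 identifiers and all 39 genes; promoters came from the RefSeq table for GRCm38.p6. Alternatives were other normalizations, DESeq2 1.42.0, limma 3.58.1 (voom), other filters, a replicate block, tag series, an acinar covariate, and leaving libraries out. The acinar covariate was the mean of log2(CPM + 1) over the 28 acinar markers in each library, not their share of counts. Every gene of the set is accounted for; values in each library are given for 9 genes fixed by role, for every gene with an unadjusted p under 0.05 or no overlap, and for others singled out after their values were seen. The 39 genes and all lists were chosen with earlier results of these data known.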

Additional observations from a re-analysis of the deposited data

Results flagged for a closer look

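Pgam5 in the library labelled control 4 stood at 16.8 CPM, below the 20.3 to 20.9 CPM of the other libraries with that label, a gap that took most of the group's range. Vdac2 in the library labelled control 1 stood at 85 CPM, above the 76.5 to 77.4 CPM of the others. Chance alone gives such a gap in about 1 in 20 groups, and 39 control groups were looked at.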

How the results depend on the processing

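None of the 39 genes passed the adjusted threshold in any of the 19 alternatives. The sign stayed the same for 7 of them in all 19 and for 17 when plain library totals are left aside. On plain totals the median of all genes moved to -0.46 and that of the 39 to -0.46; relative to it, the 39 lay at -0.01. There 0 genes did not overlap with Traf6 KO higher (0.759% of all genes) and 3 with Traf6 KO lower (10.1%), and the log2 fold change turned to -0.21 for Ulk1, -0.14 for Tbc1d15, -0.18 for Usp8, -0.02 for Atg9a, -0.14 for Ulk2, -0.25 for Rb1cc1 and -0.14 for Atg4c. Upper-quartile factors gave 2 non-overlapping genes with Traf6 KO lower (10.8% of all genes). DESeq2's Wald test called 744 genes in all and 2 of the other pathway genes. The acinar covariate called 3 genes in all, with a median of -0.04 over the 39. Leaving out the 3 libraries richest in acinar counts (Traf6 KO 1 and 2 with control 1) called 67 genes, with a median of -0.06, 9 non-overlapping genes higher (23.1%, against 32% of all genes there) and 18 lower (46.2%, against 32.9%), and Phb2 at -0.35; 1 Traf6 KO library was then left, taken to vary like the controls. The 5 Q- and R-tagged libraries alone, an alternative chosen after seeing the data, gave 15 higher (38.5%, against 19.5% of all genes there) and 5 lower (12.8%, against 21.7%). The replicate numbers do not pair the libraries (correlations of same-numbered libraries 0.62, -0.28 and 0.52, and not every library correlated best with its own number); a fit with the replicate block called 5 genes in all. Leaving out each library in turn gave 3 to 14 non-overlapping genes higher, 1 to 4 lower, and 0 to 701 genes passing in all. The highest number passing was without Traf6 KO 3. Genes of the 39 with an unadjusted p under 0.05 then ran from 0 without Traf6 KO 2 to 10 without Traf6 KO 3. The shares of all genes there were 9.89% and 23.5%. There were 4 without the library labelled control 4, against 12.9% of all genes there. With fewer libraries non-overlap is easier to reach; the other causes were not tested. Median standard errors of 0.12 on the log2 scale limit what could be detected.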
